A study of Mus musculus with 12 samples.

Results

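The effect of the Dnmt3a mutation R878H on transcript levels was compared between 6 mutant libraries (RH) and 6 wild-type libraries (WT), taken over both treatments of the experiment. All 12 libraries of the series entered the comparison, and each was assigned to its genotype and treatment by its name. Of the 54532 genes in the deposited count table, 15003 held enough reads to be tested. The libraries were made from Lin-cKit+ cells, the sorted bone marrow fraction that holds haematopoietic stem and progenitor cells (HSPCs), used fresh and without culture. WT cells were Dnmt3a+/+ and RH cells were Dnmt3a fl-R878H/+, a heterozygous conditional allele. Both genotypes were C57BL/6 and carried Mx1-cre, a recombinase gene driven by an interferon-responsive promoter. The labels do not say when or whether the recombinase was induced. Treatment lasted 1 month within an in vivo competition experiment and was either vehicle (VEH) or metformin (MET), whose dose the labels do not give. There were 3 libraries in each of the 4 combinations, named WT VEH, RH VEH, WT MET and RH MET. According to the labels a treatment group had 2 animals, and which library came from which animal is not stated. The p-values therefore reflect the spread among libraries alone, some of which may be technical. They name 1 genotype per library and do not say how competing cells of the 2 genotypes were separated.

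Dnmt3a encodes an enzyme that places new methyl groups on cytosine in CpG dinucleotides. R878H is the mouse form of a mutation found often in human clonal haematopoiesis and acute myeloid leukaemia, and it lowers the activity of the enzyme. Loss of Dnmt3a function in blood stem cells is known for expanding the stem cell pool and for altering methylation at many sites while expression changes at few genes. Metformin, an antidiabetic biguanide known to act on mitochondrial complex I, was a covariate here and not the subject.

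Total counts ran from 13359583 to 21938003 per library. Kit, the receptor used in the sort, stood at 118 to 200 CPM (counts scaled to library size with the trimmed mean of M values, TMM) in the 12 libraries. These defining markers of other cells were low but at 0 in no library: Cd3e of T cells stood at 0.378 to 3.08 CPM and Cdh5 of endothelium at 0.298 to 1.13 CPM. Col1a1 of stroma ranged more widely, from 12.2 to 445 CPM. In the libraries WT MET 2 and RH VEH 2, transcripts of the mitochondrial genome took 33.3% and 40.8% of all counts, against 1.57% to 4.32% in the other 10. Since 1 of them is WT and the other RH, they lie on opposite sides of the genotype comparison, and they also lie in different treatments. The RH mean of this share exceeded the WT mean by 1.41 percentage points (exact permutation test within treatment, two-sided, p = 0.705, smallest possible p 0.005). The libraries also fell into 2 rounds, those found in both deposited tables (round 1) and those found only in the larger one (round 2). Each round held libraries of all 4 groups, and the round was a term of the model.

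Few genes were called between the genotypes, which does not show that the other genes were alike. The 1 gene that passed the threshold was Slc15a2, higher in RH (0.00667% of the genes tested), and no gene passed it in the other direction (0%; edgeR quasi-likelihood test, Benjamini-Hochberg adjusted p under 0.05). At an unadjusted p under 0.05 there were 129 genes higher in RH (0.86%) and 257 lower (1.71%). This number depended on the fit. Over both directions it was 749 in edgeR with the library number as a block and 514 without WT MET 2 and RH VEH 2. In limma with quality weights it was 1721. DESeq2, run on the same genes, called 4 higher and 13 lower, and limma with quality weights called 1 higher and 3 lower. The median absolute log2 fold change over all genes was 0.101, and the standard error was under 0.3 for 71.7% of them. The biological coefficient of variation between libraries was 0.269.

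**Figure D1:**
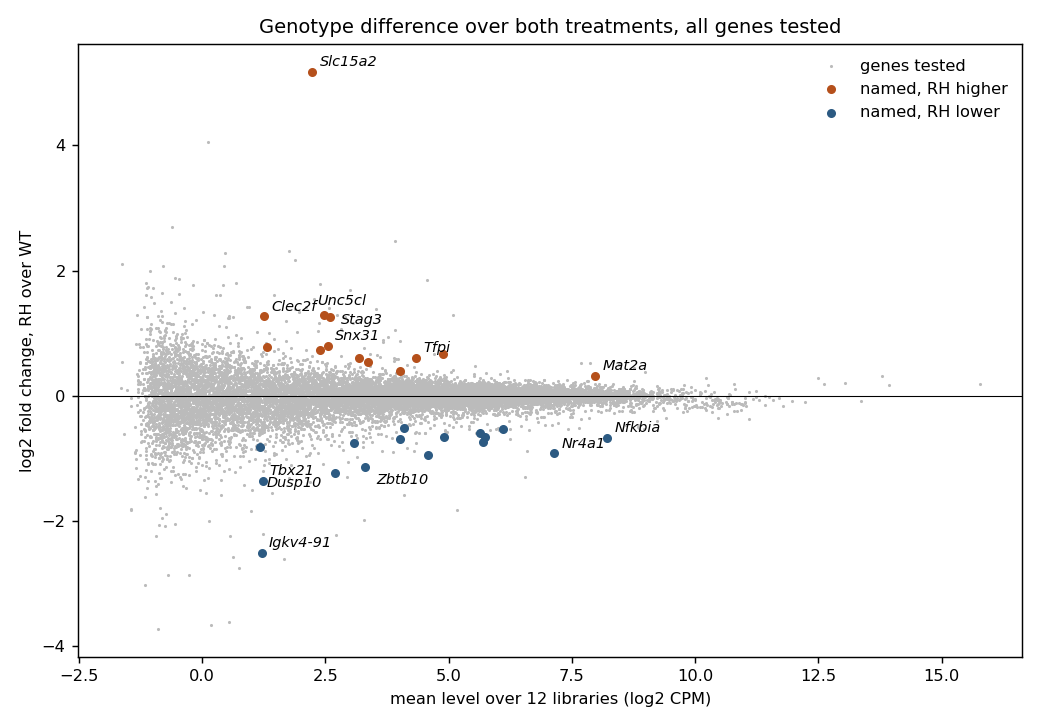
Log2 fold change of RH over WT (vertical axis) against the mean level over 12 libraries in log2 CPM (horizontal axis) for the 15003 genes tested. Grey points are genes, and coloured points are those named by smallest p or by non-overlapping libraries; Slc15a2, at 5.17, is the 1 gene that passed the threshold.

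Slc15a2 encodes PEPT2, a proton-coupled transporter that takes di- and tripeptides into cells. The gene (ENSMUSG00000022899) lies on the minus strand at chr16:36750177-36784962 of mm10. In WT libraries it was near the floor of detection. Its counts were 3, 10 and 12 reads in WT VEH 1 to 3 and 0, 0 and 3 reads in WT MET 1 to 3, where 0 reads allows up to 0.177 CPM in WT MET 1 and 0.304 CPM in WT MET 2 (3 reads, counting error only). In RH it held 161, 36 and 339 reads under vehicle and 77, 125 and 321 reads under metformin. Every RH library thus lay above every WT library, and the RH libraries themselves differed widely, from 3.82 CPM in RH MET 1 to 16.7 CPM in RH VEH 3.

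On the CPM scale, Slc15a2 averaged 0.232 ± 0.247 in WT and 8.79 ± 5.07 in RH (SD, n = 6 each). The fitted log2 fold change was 5.17 ± 0.577 (SE), with an adjusted p of 0.0144 in edgeR. From the reads alone, 1059 in RH and 28 in WT, the ratio at equal library size was 35.4 (95% interval 24.4 to 53.6, counting error only). Without WT MET 2 and RH VEH 2 the log2 fold change was 5.24 and the adjusted p 1.77e-04. The size was alike in the rounds, at 5.16 in round 1 and 5.31 in round 2. It was 4.40 among vehicle libraries and 7.23 among metformin libraries; the second value rests on 3 reads in the WT MET group and so on the prior count of the fit. The difference between the treatments did not pass the test (interaction term, edgeR adjusted p = 0.648).

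The call for Slc15a2 depended on single libraries, its direction did not. Leaving out WT VEH 1, WT VEH 3, WT MET 3, RH VEH 3 or RH MET 2 gave edgeR adjusted p values of 0.121, 0.0519, 0.133, 0.0758 and 0.0559, with log2 fold changes between 4.95 and 5.56 over all 12 omissions. The vehicle, metformin, round 1 and round 2 libraries, 6 each, did not pass the threshold alone.

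No other member of the Slc15 family passed the test. Slc15a4, a lysosomal transporter of histidine and peptides that acts in Toll-like receptor signalling, held 2765 reads over the WT libraries and 2763 over the RH libraries. Its log2 fold change was −0.13 ± 0.107 (SE). Slc15a3, another lysosomal transporter, held 374 and 346 reads, and its log2 fold change was −0.05 ± 0.540. Slc15a1 and Slc15a5 held at most 2 reads in any library and were not tested. The 9 tested genes within 0.5 Mb of Slc15a2 on chromosome 16 had log2 fold changes from −0.34 to 0.51, and 0 had an unadjusted p under 0.05 in edgeR.

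Since DNMT3A acts on CpG sites, the 250 bases before the start of Slc15a2 are shown with each CpG in capitals. They lie at chr16:36784963-36785212 on the minus strand and are given in the sense of transcription (RefSeq promoter table, GRCm38.p6).
Slc15a2: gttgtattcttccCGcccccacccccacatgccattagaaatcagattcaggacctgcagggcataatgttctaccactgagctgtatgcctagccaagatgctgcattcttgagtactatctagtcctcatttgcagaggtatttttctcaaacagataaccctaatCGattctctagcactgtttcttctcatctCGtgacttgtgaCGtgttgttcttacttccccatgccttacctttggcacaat
The window holds 4 CpG sites. Of the promoters of 10397 tested genes in the same table, 10.7% hold fewer, and their median is 15. Methylation was not measured in these libraries.

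Of all genes tested, 3 had every RH library above every WT library (0.02%) and 11 had every RH library below (0.0733%). Among 15003 genes, some separate 6 libraries from 6 by chance. Neither count was tested against that, so these genes are described and not called. Beside Slc15a2, the genes above were Snx31 and Clec2f. Snx31, a sorting nexin of endosomes, stood at 3.45, 4.10 and 5.25 CPM in WT (lowest, median and highest) and at 6.10, 7.48 and 7.77 CPM in RH. The gap between its genotypes was narrow and the spread within each was narrow too, with a log2 fold change of 0.80 ± 0.165 (SE, edgeR adjusted p = 0.676). Clec2f, a C-type lectin gene annotated as a transcribed pseudogene, stood at 1.12, 1.22 and 1.66 CPM in WT and 1.69, 3.19 and 5.07 CPM in RH. Its lowest RH library, RH VEH 1, all but touched the highest WT library. Both were called by DESeq2, with adjusted p of 0.00754 and 0.016.

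Of the genes that lay below, Myct1 was the most abundant. It is a target of Myc expressed in endothelium and in blood stem cells. Its level was 15.9, 18.3 and 26.3 CPM in WT against 10.3, 11.5 and 15.9 CPM in RH (log2 fold change −0.69 ± 0.158). Irf2bpl, a transcriptional regulator, stood at 8.64, 9.87 and 13.9 CPM in WT and 4.35, 5.98 and 8.46 CPM in RH (−0.76 ± 0.188). For both genes the highest RH and the lowest WT library all but touched, so the absence of overlap is by a small margin.

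Dusp4, a phosphatase of nuclear MAP kinases, stood at 2.04, 2.71 and 3.48 CPM in WT and 1.39, 1.46 and 1.91 CPM in RH (−0.82 ± 0.227). Tbx21, the transcription factor T-bet of type 1 T cells and NK cells, stood at 2.13, 2.86 and 6.09 CPM in WT and 0.647, 1.02 and 2.12 CPM in RH (−1.35 ± 0.371). Its highest RH and lowest WT library also all but touched, and its log2 fold change was −0.47 under vehicle and −1.86 under metformin. Igkv4-91, a variable segment of the kappa light chain, stood at 1.88, 4.03 and 4.89 CPM in WT and 0, 0.670 and 1.17 CPM in RH (−2.51 ± 0.460). Reads of such segments can be shared with near-identical copies, so this value is uncertain. The other 6 genes below were Rpl10-ps3, Gm1673, Trpc1, Iqcn, Scube3 and Nxf3, which fell outside the naming rule by symbol or low level and are named after their values were seen. None of the 11 passed the threshold in edgeR. DESeq2 called Igkv4-91 (DESeq2 adjusted p = 6.01e-06), Myct1 (DESeq2 adjusted p = 0.0455), Rpl10-ps3 and Gm1673. Igkv4-91 (limma adjusted p = 0.00192) and Iqcn were called by limma.

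**Figure D2:**
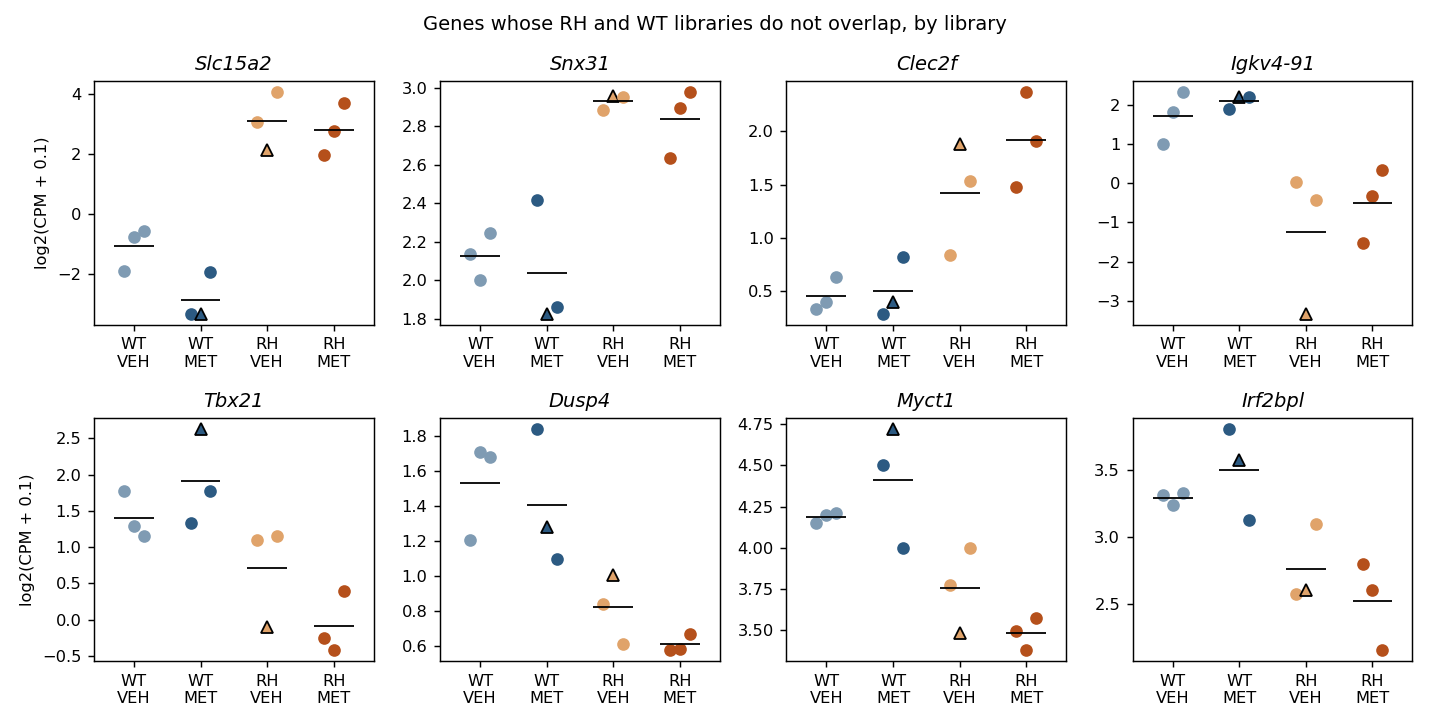
Level of 8 genes in each library as log2(CPM + 0.1), by group, with the group mean as a bar. The triangles are WT MET 2 and RH VEH 2; the RH points of Slc15a2, Snx31 and Clec2f lie above all WT points, and those of the other 5 genes lie below.

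Immediate early genes, which cells transcribe within minutes of a stimulus without new protein synthesis, lay lower in RH as a group. Of 43 tested genes of this list, 40 had a log2 fold change below 0, against 50.3% of all genes (49.7% were above 0). An unadjusted p under 0.05 was reached by 17 of them on the lower side (39.5%, against 1.71% of all genes) and by none on the higher side, and none passed the threshold after adjustment over all genes in edgeR. DESeq2 called Nr4a1 and Csrnp1 of this list. The median log2 fold change of the list was −0.39, against −0.00 over all genes. The list was chosen with earlier results of these data known, so its direction is a description.

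Nr4a1 had the smallest p of the list. It encodes an orphan nuclear receptor (Nur77) that holds blood stem cells in quiescence and is induced by antigen receptor and growth factor signals. It stood at 242, 218 and 192 CPM in WT VEH, 196, 160 and 95.5 CPM in WT MET, 174, 63.8 and 128 CPM in RH VEH, and 81.7, 76.6 and 68.9 CPM in RH MET. All RH libraries but 2, RH VEH 1 and RH VEH 3, lay below the lowest WT library, WT MET 3. The log2 fold change was −0.92 ± 0.183 (edgeR adjusted p = 0.676, DESeq2 adjusted p = 0.00754), and it was −0.70 under vehicle, −1.09 under metformin and −0.69 without WT MET 2 and RH VEH 2. Its relative Nr4a3 was scarce, at a mean of 3.32 CPM in WT and 1.11 CPM in RH, with a log2 fold change of −1.32 ± 0.331.

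The window shown for Nr4a1 is the 250 bases before its start in the RefSeq promoter table (GRCm38.p6), at chr15:101266596-101266845 on the plus strand. The deposited table has the gene at 101254269 to 101274795, so the window lies inside it, before an internal transcript start. It holds 4 copies of TGCGTCA, given in capitals. The motif was picked after the sequence was read.
Nr4a1: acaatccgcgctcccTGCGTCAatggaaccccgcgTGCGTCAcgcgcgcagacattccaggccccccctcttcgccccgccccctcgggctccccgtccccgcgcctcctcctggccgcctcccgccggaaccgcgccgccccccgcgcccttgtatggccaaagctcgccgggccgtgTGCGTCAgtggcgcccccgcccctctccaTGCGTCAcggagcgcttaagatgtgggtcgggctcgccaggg
Searched on both strands, TGCGTCA was found in 3.07% of the promoters of tested genes and in 3 of the 34 immediate early promoters in the table (8.82%). Nr4a1, from whose window the motif was picked, is among these 3, so the share of the list is partly fixed in advance. The cAMP response element TGACGTCA was in 2.74% of the promoters of tested genes and likewise in 3 of the 34. With 34 CpG sites, the Nr4a1 window is far richer in them than that of Slc15a2.

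Other members were spread over the classes of the list. Csrnp1, a nuclear protein induced by growth signals, stood at 36.5, 64.6 and 82.2 CPM in WT and 27.2, 35.9 and 53.1 CPM in RH (−0.74 ± 0.166). Dusp5, a phosphatase that inactivates nuclear ERK, stood at 38.2, 70.4 and 88.8 CPM in WT and 27.7, 42.3 and 51.5 CPM in RH (−0.66 ± 0.152). In both genes WT MET 3 lay within the RH range, and for Dusp5 WT MET 2 did so too. The AP-1 subunit Junb averaged 525 ± 77.5 CPM in WT and 387 ± 81.9 CPM in RH (SD, n = 6 each; log2 fold change −0.47), and the stress factor Atf3 75.0 ± 15.4 and 53.3 ± 13.3 CPM (−0.51). Egr2 and Egr3, zinc finger factors of the growth response, had log2 fold changes of −0.76 and −0.83. The classical members Fos and Dusp1 did not share the difference, at 0.03 and 0.02, and Myc, which drives growth, was at 0.20.

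**Figure D3:**
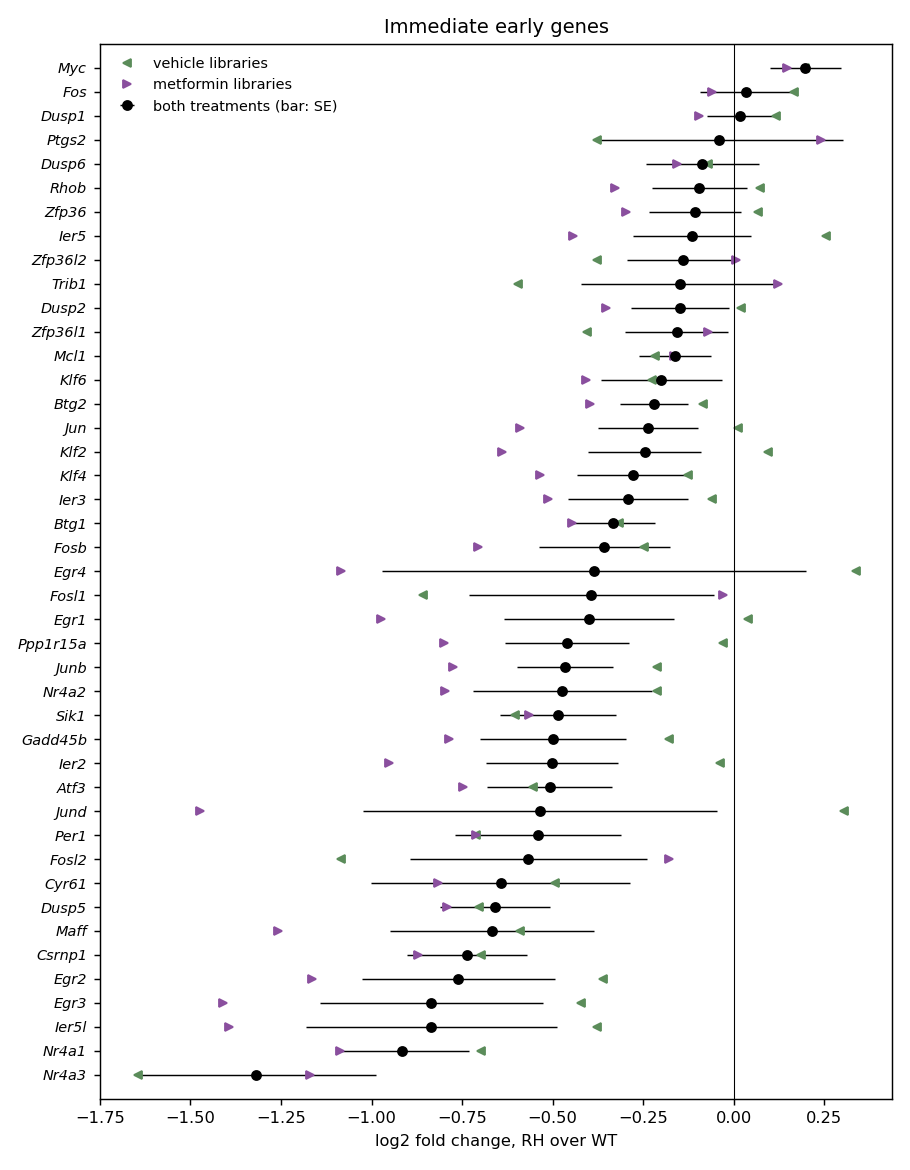
Log2 fold change of RH over WT for the 43 immediate early genes, over both treatments with SE (black) and within vehicle or metformin libraries (triangles). Of these genes, 40 lie below 0 over both treatments, 31 among vehicle libraries and 39 among metformin libraries.

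Within the treatments the list lay on the same side of 0, by different amounts, and the difference between these amounts was not tested for the list. Its median was −0.22 among vehicle libraries (31 of 43 lower) and −0.59 among metformin libraries (39 of 43 lower). In round 1 it was −0.35 (37 of 43 lower) and in round 2 −0.50 (42 of 43 lower), and without WT MET 2 and RH VEH 2 it was −0.30. The summed level of the list ranged from 10970 to 14910 CPM in WT and from 9141 to 12340 CPM in RH. It separated RH MET (9141, 10070 and 10220 CPM) from WT MET (11440, 14520 and 14910 CPM) but not RH VEH (11350, 12200 and 12340 CPM) from WT VEH (10970, 11930 and 14100 CPM). The interaction term passed for none of the genes named here (lowest edgeR adjusted p = 0.648).

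Zbtb10, Bhlhe40 and Irf1, outside that list, were named for their small p on the lower side. Zbtb10, a zinc finger repressor, had the smallest p on that side. It stood at 14.8, 17.8 and 14.4 CPM in WT VEH, 18.6, 8.42 and 6.93 CPM in WT MET, 7.28, 4.78 and 6.20 CPM in RH VEH, and 8.73, 5.99 and 3.22 CPM in RH MET. Under vehicle the genotypes did not overlap, and under metformin RH MET 1 exceeded WT MET 2 and WT MET 3. The log2 fold change was −1.14 ± 0.193 (edgeR adjusted p = 0.396, DESeq2 adjusted p = 1.65e-04) and close to this in both treatments, −1.27 and −1.28.

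Bhlhe40, a basic helix-loop-helix repressor of the circadian and stress response, stood at 16.4, 32.5 and 45.8 CPM in WT and 9.80, 15.1 and 22.8 CPM in RH (−0.95 ± 0.211). Irf1, which activates interferon target genes, stood at 39.6, 59.4 and 76.3 CPM in WT and 31.4, 38.6 and 50.5 CPM in RH (−0.59 ± 0.130). DESeq2 called both, with adjusted p of 0.0284 and 0.0278. Of the 47 interferon-stimulated genes tested, Irf1 among them, 31 were lower and the median was only −0.06, so the list as a whole did not follow Irf1.

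Negative regulators of MAP kinase signalling were looked at as a family after these values were seen. Dusp10, a phosphatase of p38 and JNK, stood at 2.90, 10 and 11.9 CPM in WT and 2.62, 3.10 and 6.31 CPM in RH (−1.23 ± 0.301), with WT MET 3 as the 1 WT library in the RH range. Spry2, a Sprouty inhibitor of receptor tyrosine kinase signalling, stood at 14.8, 19.4 and 27.8 CPM in WT and 10.5, 13.3 and 17.3 CPM in RH (−0.52 ± 0.127). Of the 25 tested DUSP, Sprouty and SPRED genes, 20 were lower in RH (50.3% of all genes were). The median log2 fold change of the 25 was −0.13. Of the 20, 6 had an unadjusted p under 0.05 (24% of the family, against 1.71% of all genes). Dusp4, Dusp5, Dusp10 and Spry2, whose values had been seen, are among the 6, so the count partly restates the choice. The summed level of the family overlapped between the genotypes, at 927 to 1148 CPM in WT and 953 to 1067 CPM in RH.

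Genes of the NF-kB and TNF response lay lower in a similar way. NF-kB is a family of transcription factors held inactive by inhibitor proteins that are themselves among its targets. Of 37 tested genes, 32 had a log2 fold change below 0 (50.3% of all genes did). Of the 32, 9 had an unadjusted p under 0.05 (24.3% of the list, against 1.71% of all genes). None of the 37 passed after adjustment in edgeR. The median was −0.20, and it was −0.27 under vehicle, −0.26 under metformin and −0.17 without WT MET 2 and RH VEH 2.

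Nfkbia and Tnfaip3 were among the abundant members of small p. Nfkbia, which encodes the inhibitor IkB-alpha, stood at 500, 415 and 301 CPM in WT VEH, 519, 271 and 186 CPM in WT MET, 321, 235 and 207 CPM in RH VEH, and 285, 204 and 115 CPM in RH MET. It was lowest in the library numbered 3 of each group, and WT VEH 3, WT MET 2 and WT MET 3 lay within the RH range. The log2 fold change was −0.67 ± 0.156 (edgeR adjusted p = 0.753, DESeq2 adjusted p = 0.0455). Tnfaip3, the ubiquitin-editing inhibitor A20, averaged 552 ± 166 CPM in WT and 381 ± 106 CPM in RH (−0.52). The subunit Nfkb2 stood at 20.5, 39.1 and 50.4 CPM in WT and 16.1, 24.0 and 34.8 CPM in RH (−0.55 ± 0.142), and its partner Relb averaged 7.13 and 4.41 CPM (−0.69). The cytokine Tnf itself was at −0.19 ± 0.192 the subunit Rela at −0.20 ± 0.140 and another inhibitor, Nfkbie, at −0.04 ± 0.190, all within the spread between libraries.

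**Figure D4:**
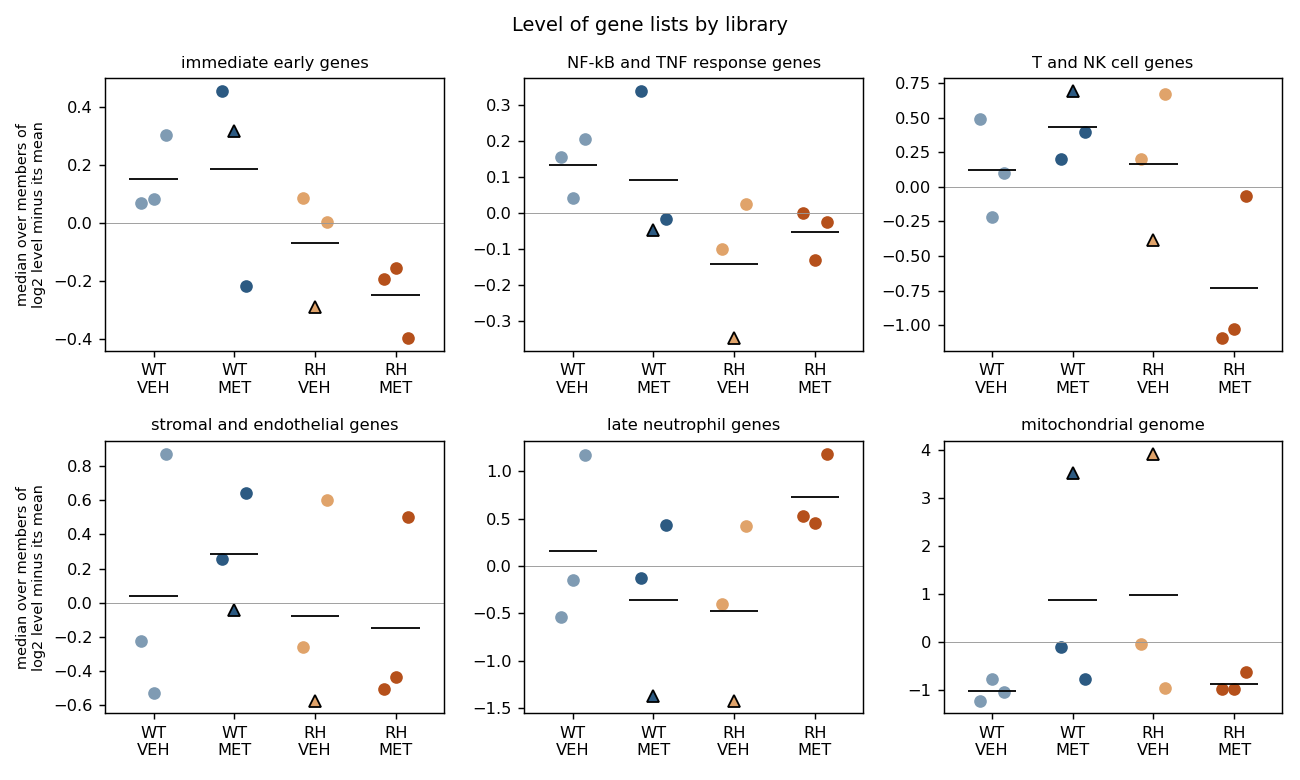
Level of 6 gene lists in each library, as the median over members of the log2 level minus its mean over 12 libraries, with the group mean as a bar. Triangles are WT MET 2 and RH VEH 2, which hold the highest values of the mitochondrial genome. The RH MET mean lies below the WT MET mean in every list shown but the late neutrophil genes.

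Genes of T and NK cells lay lower in RH among the metformin libraries. Of 38 tested genes, 34 had a log2 fold change below 0 over both treatments (50.3% of all genes did), and the median was −0.52. An unadjusted p under 0.05 was reached by 9 of the 34 (23.7% of the list, against 1.71% of all genes). Without WT MET 2 and RH VEH 2 the median was −0.28, and it was −0.51 in round 1 and −0.16 in round 2 (26 of 38 lower). Under metformin the median was −1.0 and under vehicle it was 0.15, so the value over both treatments hides opposite signs. The summed level of the list was 240, 278 and 260 CPM in WT MET and 108, 115 and 204 CPM in RH MET, which do not overlap. Under vehicle it was 260, 169 and 231 CPM in WT and 233, 180 and 293 CPM in RH, which do. In bulk samples, fewer cells of a type and less RNA of these genes per cell cannot be told apart.

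Members of smallest p included effector and receptor genes. Prf1, the pore-forming perforin, averaged 2.45 ± 0.588 CPM in WT and 0.925 ± 0.668 CPM in RH (log2 fold change −1.42; −0.69 under vehicle and −1.80 under metformin). Gzma, a granzyme, stood at 2.05, 2.67 and 5.85 CPM in WT and 0.744, 1.21 and 3.34 CPM in RH (−1.08 ± 0.382). Trbc1, a constant segment of the T cell receptor, was at −0.95 ± 0.357. The cytokine Ifng was at −1.02 and the T-box factor Eomes at −1.11. These genes stood at a few CPM, where 1 CPM was worth 8.37 reads in RH VEH 2 and 24.8 reads in RH MET 3. Nkg7, of cytotoxic granules, was at −0.15 ± 0.169, and Cd4 ran the other way, at 0.52 ± 0.324. Nr4a1, Nr4a3, Egr2 and Irf1 are also expressed in activated lymphocytes, and the part of these cells in the differences above was not tested.

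Stromal and endothelial genes were lower in 25 of 29 cases, with a median of −0.33 (−0.31 under vehicle, −0.42 under metformin). Among them, 1 had an unadjusted p under 0.05 (3.45% of the list, against 1.71% of all genes). That gene was Cxcl12, the chemokine that retains stem cells in the marrow, at 2.97, 15.3 and 18.9 CPM in WT and 3.67, 7.01 and 13.7 CPM in RH (−0.67 ± 0.284). The summed level of the list ranged from 442 to 1540 CPM in WT and from 393 to 1192 CPM in RH. It was highest in the 4 libraries numbered 3, all of round 2, at 1540, 1215, 1192 and 1040 CPM, so the libraries numbered 3 stood apart in both genotypes.

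Of 44 stem cell genes tested, 35 were lower in RH. Among these, 2 had an unadjusted p under 0.05 (4.55% of the list, against 1.71% of all genes). The median was −0.16, and it was −0.33 under metformin, 0.04 under vehicle and −0.10 without WT MET 2 and RH VEH 2. Hlf, a transcription factor that marks long-term stem cells, stood at 8.39, 13.2 and 19.8 CPM in WT and 8.01, 9.10 and 11.7 CPM in RH (−0.40 ± 0.189), with a value of −0.08 under vehicle. Meis1, a cofactor of Hox proteins, was at −0.20 ± 0.193. Krt18, a keratin expressed in stem cells, was at −0.55 ± 0.207. Of the 18 Hox, Meis and Pbx genes tested, 12 were lower with a median of −0.05.

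**Figure D5:**
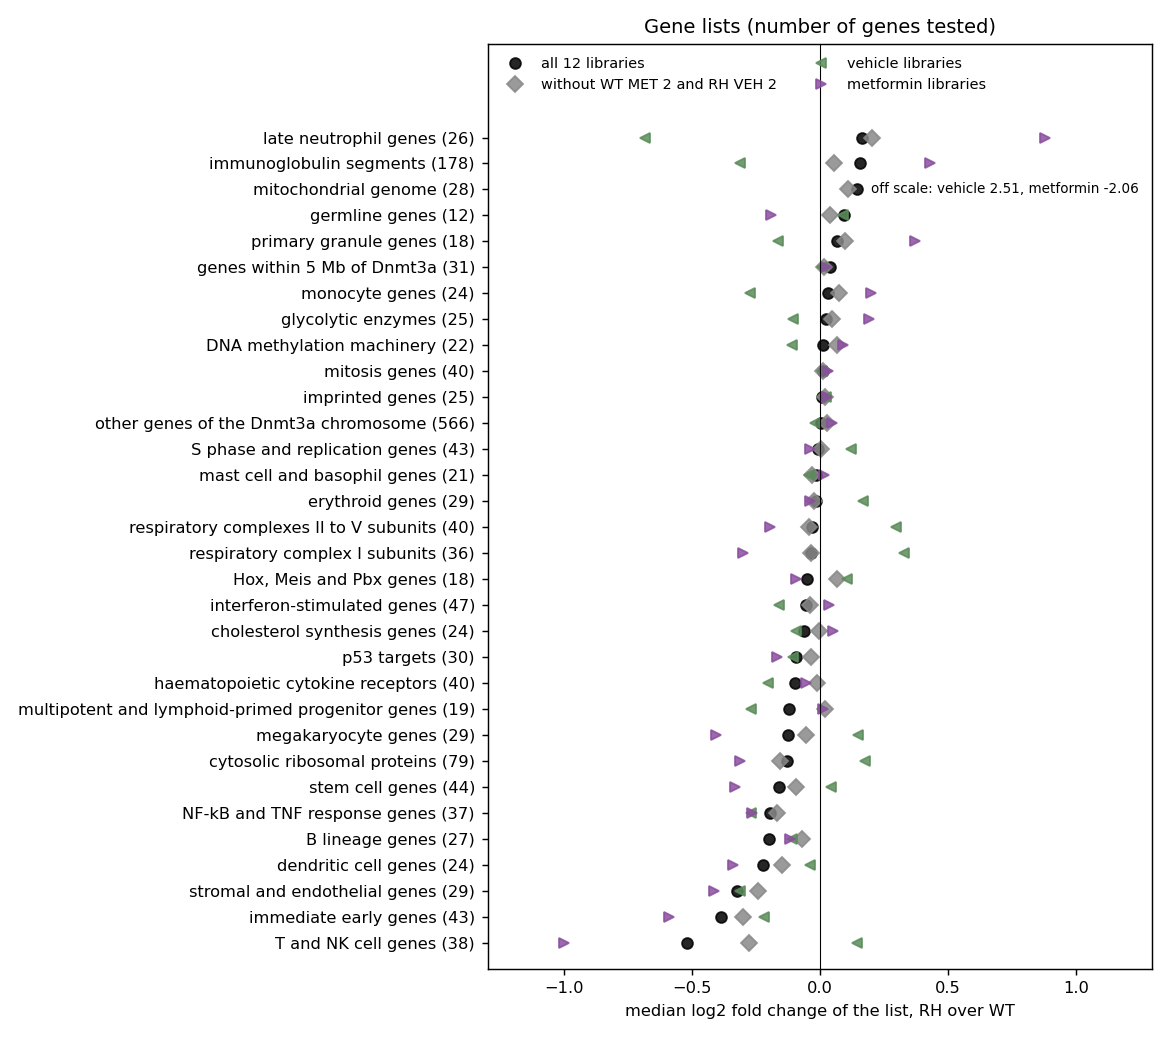
Median log2 fold change of RH over WT for each gene list with at least 5 tested genes, over all 12 libraries (circles), without WT MET 2 and RH VEH 2 (diamonds) and within each treatment (triangles). The number of tested genes stands in brackets; immediate early genes lie left of 0 in all 4 settings, while T and NK cell genes lie at 0.15 among vehicle and −1.0 among metformin libraries.

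Genes higher in RH were fewer, and beside Slc15a2, Snx31 and Clec2f they overlapped with WT in at least 1 library. Tfpi, the inhibitor of the tissue factor pathway of coagulation, stood at 13.7, 16.1 and 17.7 CPM in WT and 17.1, 24.2 and 30 CPM in RH. All RH libraries except RH VEH 2 exceeded the highest WT library, and the log2 fold change was 0.61 ± 0.140 (edgeR adjusted p = 0.734, DESeq2 adjusted p = 0.0509). A pair of amino acid transporters followed. Slc1a4, which carries alanine, serine and cysteine, stood at 4.74, 7.28 and 9.67 CPM in WT and 7.08, 10.7 and 15.3 CPM in RH (0.61 ± 0.158). Slc7a7, a subunit of the exchanger of cationic and neutral amino acids, stood at 6.49, 8.28 and 9.90 CPM in WT and 9.02, 12.6 and 13.3 CPM in RH (0.55 ± 0.155), with 0.15 under vehicle and 0.85 under metformin.

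Mat2a, Pfkfb4 and Cyb561 were also named on the higher side. Mat2a, which makes S-adenosylmethionine, the methyl donor of DNA methyltransferases, stood at 186, 231 and 254 CPM in WT and 211, 290 and 322 CPM in RH (0.32 ± 0.106), with 4 of 6 RH libraries above the highest WT library. Pfkfb4, a regulator of glycolysis, stood at 11, 13.1 and 17.2 CPM in WT and 14.8, 17.7 and 22 CPM in RH (0.40 ± 0.128). Cyb561, a cytochrome that passes electrons across vesicle membranes, was at 0.74 ± 0.239. On the lower side, the mitochondrial kinase Pink1, which starts the removal of damaged mitochondria, stood at 64.1, 78.0 and 100 CPM in WT and 45.3, 55.7 and 65.8 CPM in RH (−0.54 ± 0.131), with 5 of 6 RH libraries below the lowest WT library. Psd, an exchange factor of the GTPase ARF6, was at −0.65 ± 0.156.

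A few of the higher genes rested on some RH libraries. Unc5cl, a death-domain protein that can activate NF-kB, stood at 2.65, 3.15 and 3.85 CPM in WT and 2.63, 6.95 and 15.8 CPM in RH, with RH VEH 2 the lowest of all 12 (1.28 ± 0.344). Stag3, a cohesin subunit of meiosis, stood at 2.59, 2.92 and 5.98 CPM in WT and 2.46, 7.97 and 17.9 CPM in RH, with RH VEH 3 the lowest of all (1.26 ± 0.421). Dnah8, an axonemal dynein, was at 0.68 ± 0.197 and rested on metformin libraries (0.13 under vehicle, 1.19 under metformin). Plpp7, a membrane protein of the lipid phosphatase family, was at 0.79 ± 0.265.

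Dnmt3a itself did not differ between the genotypes beyond the spread of libraries. It stood at 40.5, 43.8 and 59.9 CPM in WT and 39.7, 47.2 and 58.2 CPM in RH, and the log2 fold change was 0.01 ± 0.110 (−0.14 under vehicle, 0.12 under metformin). The counts carry no allele, so they do not check the mutation. The maintenance methyltransferase Dnmt1 was at 0.05 ± 0.126 and the second de novo enzyme Dnmt3b at 0.01 ± 0.134. The TET dioxygenases, which oxidise methylcytosine, were at −0.10 ± 0.256 (Tet1), 0.05 ± 0.157 (Tet2) and −0.01 ± 0.124 (Tet3). For Dnmt1, Dnmt3b, Tet2 and Tet3 as for Dnmt3a the sign turned between vehicle and the whole set. Of the 22 genes of the DNA methylation machinery tested, 14 were higher and 8 lower with a median of 0.01, and the 1 with an unadjusted p under 0.05 was Gadd45b, also an immediate early gene (−0.50 ± 0.202).

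Imprinted and germline genes include many that DNA methylation is known to silence. Of 25 imprinted genes tested, 14 were higher and 11 lower (median 0.01), and 0 had an unadjusted p under 0.05 in edgeR. Of 39 germline genes listed, 12 held enough reads, 8 of them higher with a median of 0.10. That median was 0.09 under vehicle, −0.19 under metformin (9 of 12 lower), −0.19 in round 1 and 0.33 in round 2 (10 of 12 higher), and 0.04 without WT MET 2 and RH VEH 2. The 31 tested genes within 5 Mb of Dnmt3a on chromosome 12 had log2 fold changes from −0.41 to 0.55 with a median of 0.04. Of these, 22 were higher (19 without WT MET 2 and RH VEH 2), and 0 had an unadjusted p under 0.05.

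Several lists had opposite signs in the treatments. Their value over both treatments is the median over members in the joint fit to all libraries, and it hides these signs. Late neutrophil genes were higher in 23 of 26 cases with a median of 0.17, with −0.69 under vehicle and 0.88 under metformin. Their summed level was lowest in RH VEH 2 (882.5 CPM) and WT MET 2 (955.5 CPM), against 1899 CPM or more in every other library. Without RH VEH 2 and WT MET 2 the median was 0.20. Cytosolic ribosomal protein genes were lower in 77 of 79 cases with a median of −0.13, with 0.18 under vehicle and −0.31 under metformin. Subunits of respiratory complex I, the target of metformin, had a median of −0.03, from 0.33 (35 of 36 higher) under vehicle and −0.30 (33 of 36 lower) under metformin. For transcripts of the mitochondrial genome the medians were 2.51 and −2.06, with RH VEH 2 in the vehicle and WT MET 2 in the metformin comparison. Without these 2 libraries the median over both treatments was 0.11. Megakaryocyte genes were lower in 27 of 29 cases with a median of −0.13, from 0.15 and −0.41, and −0.06 without WT MET 2 and RH VEH 2.

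Across all 15003 genes, the genotype log2 fold changes under vehicle and under metformin, which share no library, had a Pearson r of −0.23 and a Spearman rho of −0.312. Without WT MET 2 and RH VEH 2 they were 0 and −0.145. Between round 1 and round 2 they were 0.144 and 0.081. These describe genes measured in the same libraries, which are not independent replicates. Genes with 1 sign in vehicle, metformin, round 1 and round 2 alike numbered 1782 on the higher side (11.9%) and 1970 on the lower side (13.1%).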

How the data were processed

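Bulk RNA was sequenced as 150-base paired reads from NEBNext Ultra RNA libraries, per the labels' protocols. The authors deposited raw counts of reads per gene, whole numbers with no normalization. STAR 2.5, HTSeq 0.6.1 and mm10 are named, per the submitters' processing notes; how strand and reads with several matches were handled is not stated there. A table of 12 libraries was used. A second table of 8 columns served only to find the 6 columns common to both; its other 2 columns were not used. Library numbers are those of the column names. For 7 columns the name gives the group but not the exact sample, as their numbers do not follow those of the sample titles.

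Under R 4.3.3, counts were tested by the robust quasi-likelihood method of edgeR 4.0.16, with TMM normalization, filterByExpr by group and a model of treatment, round and genotype, and p-values were adjusted by Benjamini-Hochberg over 15003 genes. A call needed an adjusted p under 0.05. SE is the absolute log2 fold change over the square root of F. DESeq2 1.42.0, limma 3.58.1, other filters, size factors and sets of libraries were the alternatives; fits on fewer libraries kept the same genes. The test was tried on simulated counts first.

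Named genes were all calls; genes whose genotypes did not overlap, at mean log2 CPM 0 or above; up to 12 genes per direction of smallest p, at mean log2 CPM 1 or above and with 1 sign in both treatments and both rounds; up to 2 per list; and the Dnmt, Tet and Slc15 genes, Kit and Gapdh. Predicted genes and the like were left out. The comparison, its 33 lists and the alternatives were chosen with earlier results of these data known, and lists are described by counts and medians. Within a treatment, RH and WT libraries of the same number deviated together from their group means (correlations across genes of 0.328, 0.144 and 0.585 under vehicle and 0.257, 0.103 and 0.322 under metformin). The number was therefore fitted as a block in an alternative; where the pairing comes from is not given, and number 1 is all round 1 and number 3 all round 2. Promoters were matched by symbol for 74 of the 93 named genes, using the first entry of a symbol.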

Additional observations from a re-analysis of the deposited data

Results flagged for a closer look

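In 18 of 190 sets of 6 libraries examined (2 genotypes by named gene or library measure), 1 library stood apart by Dixon's criterion. Chance gives about 1 in 20 for independent sets of normally distributed values. The sets here share the same 12 libraries, so the 18 cannot be set against that rate. The mitochondrial share of counts reached 33.3% (WT MET 2) and 40.8% (RH VEH 2), while no other library exceeded 4.32%. With it stood mt-Nd1, at 52500 CPM in WT MET 2 and 85600 CPM in RH VEH 2, and mt-Ty, at 21 and 25.7 CPM. WT MET 2 also stood above the other WT libraries for Tbx21 (6.09 CPM), Stag3 (5.98 CPM), Slc2a1 (18.1 CPM), Tie1 (45.2 CPM) and Il7r (7.10 CPM), and RH VEH 2 below the other RH libraries for Slc15a4 (19 CPM). Low libraries within RH were RH MET 1 for Snx31 (6.10 CPM) and RH VEH 1 for Slc7a7 (9.02 CPM). Within WT, Gzmb was high in WT MET 1 (22 CPM), and Padi4 and Slc15a3 in WT VEH 3 (37.1 and 8.52 CPM). Gapdh stood at 172 CPM in RH VEH 1 against 14.1 to 68.1 CPM in the other RH libraries. Causes were not tested.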

How the results depend on the processing

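With another size factor (RLE), a filter of 1 CPM in 6 libraries, no round term, a mean per group, or the mitochondrial genome left out, Slc15a2 was again the 1 call. With the library number as a replicate block it was the 1 call too (log2 fold change 5.46, edgeR adjusted p = 6.63e-07), and the block changed no other call. With no filter on low counts, 27530 genes gave 106 calls (43 higher, 63 lower), DESeq2 gave 17 (4 higher, 13 lower) and limma 4 (1 higher, 3 lower); the cause was not tested. Among vehicle, metformin, round 1 or round 2 libraries alone edgeR gave 0 calls (0 higher, 0 lower), with 180, 1094, 522 and 79 genes at an unadjusted p under 0.05. Leaving out 1 library gave 0 to 2 calls (0 to 1 higher, 0 to 1 lower), where the 1 lower gene, Eps8l1, was called without RH VEH 1. For genes not called, the sign of the log2 fold change turned in some settings. These values were, among vehicle libraries alone, Csrp3 0.063, Rpl26 0.10, Ndufa6 0.058, Cox7a2l 0.090, Hba-a1 0.28, Knl1 −0.024, Cxcr2 −0.25, Mcts2 −0.036, E2f1 0.18, Meis1 0.034, Padi4 −0.47, Dnmt1 −0.23, Kit −0.15, Tet2 −0.24, Dnmt3a −0.14, Tet3 0.050 and Dnmt3b −0.18; among metformin libraries alone, Gapdh −0.073, Gins3 −0.0019, Xlr4b −0.079, Tet1 0.081, mt-Ty −1.96, mt-Nd1 −1.97 and Slc15a3 0.96. They were, in round 1 alone, Mvd 0.098, Xlr4b −0.18, Tet1 0.17, Kit −0.021, Tet2 −0.15 and Tet3 0.062; in round 2 alone, Car1 0.013, Rps26 0.057, Rpl26 0.0080, Syce2 0.011, Il7r 0.083, Mcts2 −0.080, Gfi1 −0.00048, mt-Ty −0.38, Kit −0.034, Dnmt3a −0.087 and Dnmt3b −0.11. They were, with limma, Il7r 0.23, Cycs −0.023, mt-Ty −0.45, mt-Nd1 −0.18, Slc15a3 0.19 and Tet3 0.069; without WT MET 2 and RH VEH 2, Zbtb38 0.018, Tet2 −0.018 and Tet3 0.097. Tet3 was at 0.0094 with no filter and at 0.0024 with the replicate block. Over the omissions of 1 library, genes whose sign turned ranged as follows: Dnmt1 −0.021 to 0.13, Tet1 −0.23 to 0.11, mt-Ty −1.01 to 1.46, Kit −0.040 to 0.14, Tet2 −0.046 to 0.14, mt-Nd1 −0.91 to 1.28, Dnmt3a −0.047 to 0.076, Slc15a3 −0.37 to 0.34, Tet3 −0.079 to 0.11 and Dnmt3b −0.065 to 0.11. Depth limits genes near 1 CPM, which was worth 8.37 to 24.8 reads per library. Treatment and round were fitted as additive, and animals, sort days and the dose of metformin are not in the labels.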

Other observations

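Of the lists not described above, those of the cell cycle lay close to the median of all genes (−0.00). Mitosis genes were higher in 21 of 40 cases (median 0.01) and S phase and replication genes in 21 of 43 (−0.01). The replicative lists had 0 genes with an unadjusted p under 0.05 in edgeR. Erythroid genes were lower in 18 of 29 cases (median −0.02), and Car1, an early erythroid carbonic anhydrase, stood at 1180, 1400 and 1610 CPM in WT (lowest, median, highest) and 955, 1150 and 1490 CPM in RH (log2 fold change −0.26 ± 0.125, SE). Of 30 p53 targets, 19 were lower (median −0.09), among them the cell cycle inhibitor Cdkn1a (−0.49 ± 0.182). Cholesterol synthesis genes were lower in 15 of 24 cases (median −0.06), and mast cell and basophil genes in 11 of 21 (−0.01). Respiratory complexes II to V had a median of −0.03, from 0.30 under vehicle and −0.19 under metformin. Haematopoietic cytokine receptors were lower in 28 of 40 cases (median −0.10, and −0.01 without WT MET 2 and RH VEH 2), and Erbb3, a receptor of the EGF receptor family, was at −0.64 ± 0.285. Multipotent and lymphoid-primed progenitor genes had a median of −0.12, which was 0.02 without WT MET 2 and RH VEH 2. Primary granule genes had a median of 0.07, from −0.16 under vehicle (15 of 18 lower) and 0.37 under metformin (16 of 18 higher). Monocyte genes had a median of 0.03, from −0.27 under vehicle (21 of 24 lower) and 0.20 under metformin (17 of 24 higher). The primary granule sum was lowest in WT MET 2 (1812 CPM) and RH VEH 2 (1962 CPM). The monocyte sum was lowest in RH VEH 2 (655.5 CPM) and WT MET 2 (875.9 CPM). Dendritic cell genes were lower in 21 of 24 cases (median −0.22, and −0.15 without WT MET 2 and RH VEH 2). The 566 other genes of chromosome 12 had a median of 0.01.

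Of 178 tested immunoglobulin segments, 99 were higher in RH (median 0.16). An unadjusted p under 0.05 was reached by 12 on the higher side (6.74%, against 0.86% of all genes). On the lower side 8 reached it (4.49%, against 1.71% of all genes). The median was −0.31 under vehicle (109 of 178 lower) and 0.43 under metformin (115 of 178 higher), and it was 0.05 without WT MET 2 and RH VEH 2. The constant segment Iglc1 stood at 273, 342 and 105 CPM in WT VEH, 45.4, 41.8 and 53 CPM in WT MET, 39.6, 34.9 and 85.1 CPM in RH VEH, and 52.3, 19.8 and 23.9 CPM in RH MET. The 3 WT VEH libraries exceeded all others, and its log2 fold change was −1.3 ± 0.386. B lineage genes were lower in 20 of 27 cases (median −0.20, and −0.07 without WT MET 2 and RH VEH 2). Glycolytic enzymes were higher in 15 of 25 cases (median 0.02). Their member Gapdh was at 1.29 ± 0.654, with 2.69 under vehicle and −0.07 under metformin; reads of this gene can be shared with its many pseudogenes.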
